A study of Mus musculus with 9 samples.

Results

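The SOX genes other than Sox2 were followed in 3 mouse cell lines, P19 NTES7, P19 and R1. The members were taken by name as Sox1, Sox3, Sox4, Sox9, Sox11, Sox12, Sox13, Sox15, Sox18 and Sox21, and all 10 had a probe set, out of 19938 genes with a measured probe set. Each member had exactly 1 probe set with its symbol alone. P19 NTES7 is a line of pluripotent stem cells derived from blastocysts cloned with P19 nuclei, and it is 1 such line. P19 is an embryonal carcinoma line, a cancer cell line with features of the early embryo, and R1 is an embryonic stem (ES) cell line. The sample labels name the first line only as pluripotent stem cells derived from P19 cells, and they are called P19 NTES7 here after the line for which the paper gives array data. All lines were grown in the same ES medium with serum and leukemia inhibitory factor (LIF), and no treatment was applied. Per the methods, NTES and ES cells were kept on mouse embryonic fibroblasts as feeders, P19 cells were not, and feeders were removed before collection. Each line had 3 arrays, labelled biological replicates. No source used here says whether they were separate cultures, and a p-value therefore reflects only how far these arrays spread.

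SOX proteins are transcription factors that bind DNA through an HMG box, a domain they share with Sry, the testis-determining factor that gave the family its name. They often act beside a partner factor at neighbouring DNA sites, as Sox2 does with the POU factor Pou5f1 (Oct4) in pluripotent cells. The family is divided into groups by sequence. SoxB1 and SoxB2 genes act in neural progenitors, SoxC genes in neural and mesenchymal progenitors, SoxD and SoxE genes in cartilage, glia and other lineages, SoxF genes in endothelium and endoderm, and Sox15 forms SoxG.

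Promoter sequences are shown for Sox4, Sox12 and Sox15, the members whose levels differed most between the lines, and for Sox11, which moved with Sox12. Each is the 250 bases before the gene's start from RefSeq on build GRCm38.p6, written 5′ to 3′ on the strand of the gene. Capitals mark matches, on either strand, to the octamer ATGCAAAT bound by POU factors, the SOX cores ACAAAG and ACAATG, the CCAAT box CCAAT and the TATA box TATAAA. The windows are chr13:28953700-28953949 (minus strand) for Sox4, chr12:27342719-27342968 (minus strand) for Sox11, chr2:152398047-152398296 (minus strand) for Sox12 and chr11:69654787-69655036 (plus strand) for Sox15.
Sox4: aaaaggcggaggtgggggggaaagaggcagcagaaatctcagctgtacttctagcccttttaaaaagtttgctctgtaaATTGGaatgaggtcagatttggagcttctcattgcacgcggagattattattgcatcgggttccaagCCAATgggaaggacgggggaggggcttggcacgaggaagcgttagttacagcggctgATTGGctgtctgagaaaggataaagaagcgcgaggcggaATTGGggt
Sox11: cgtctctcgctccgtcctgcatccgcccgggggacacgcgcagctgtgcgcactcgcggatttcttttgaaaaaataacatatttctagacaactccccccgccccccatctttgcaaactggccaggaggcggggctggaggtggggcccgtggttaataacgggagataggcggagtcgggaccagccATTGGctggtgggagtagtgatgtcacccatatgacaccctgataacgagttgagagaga
Sox12: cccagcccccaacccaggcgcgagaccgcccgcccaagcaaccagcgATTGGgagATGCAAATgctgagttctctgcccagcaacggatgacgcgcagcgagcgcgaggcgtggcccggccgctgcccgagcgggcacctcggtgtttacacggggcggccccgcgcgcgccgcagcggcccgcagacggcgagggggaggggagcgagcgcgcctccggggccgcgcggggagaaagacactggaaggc
Sox15: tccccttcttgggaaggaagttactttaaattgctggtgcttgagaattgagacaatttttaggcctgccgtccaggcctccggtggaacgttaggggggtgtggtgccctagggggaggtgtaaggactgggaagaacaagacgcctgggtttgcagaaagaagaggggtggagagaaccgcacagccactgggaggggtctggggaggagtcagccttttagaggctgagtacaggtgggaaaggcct

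The Sox4 window held 4 CCAAT matches and the Sox11 window held 1. The Sox12 window held an octamer, from base 195 to base 188 before the start on the strand of the gene, and a CCAAT match on the opposite strand from base 203 to base 199. The Sox15 window held no match to these letters. Of 27025 mouse promoter windows of this length, 1.61% held the octamer, 16.5% ACAAAG, 11% ACAATG, 34.5% CCAAT and 13% TATAAA. CG dinucleotides numbered 11 in the Sox4 window, 17 in Sox11, 35 in Sox12 and 5 in Sox15, against a median of 6 over all windows (quartiles 2 and 16). The Sox12 window had a GC share of 74.4%, against 50.8% for Sox4, 58% for Sox11, 55.6% for Sox15 and a median of 52% over all windows. The table held such a window for 7 of the 10 members, and Sox3, Sox9 and Sox18 had none in it. These matches are descriptions of the letters only, and binding was not measured.

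The values are array intensities on the linear scale, as normalized by the authors. They carry no read depth, and the number of arrays limits their precision. Array medians lay between 16.5 and 17.5, and a level at or below the median is near the floor of the array, where folds are not exact. Log2 differences between lines come from 1 limma fit over all 28853 probe sets and the 9 arrays, with standard errors (SE) from the fit and Benjamini-Hochberg adjusted p-values. A gene was called where its adjusted p was under 0.01 and its fold over 2. Arrays of the same line had a Pearson r of at least 0.989 over all probe sets, and arrays of different lines of at most 0.978. By line means, none of the 10 pluripotent markers was at or below the array median in any line, although Zfp42 was below it on P19 replicate 3. Summed over 17 measured fibroblast markers, the intensities were 844.3 to 1040 in P19 NTES7, 237.9 to 265 in P19 and 1307 to 1613 in R1, with 4, 13 and 2 markers at or below the array median by line means and none at 0. In these bulk samples, fewer cells of a type and less RNA per cell cannot be told apart.

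Of the 10 members, Sox12 was called lower for P19 NTES7 compared to P19, and Sox4 higher and Sox15 lower in both P19 NTES7 and P19 than in R1. In P19 NTES7 compared to P19, 1 member was called, 0 higher and 1 lower, against 2.83% of all genes. In P19 compared to R1, 2 members were called, against 7.31% of all genes, and in P19 NTES7 compared to R1, 2 members, against 4.51% of all genes. With the adjusted p alone, at any fold, 4 members passed in P19 NTES7 compared to P19, against a background of 12.1%. In P19 compared to R1, 4 passed, against 25%, and in P19 NTES7 compared to R1, 3 passed, against 18.7%. The arrays of the lines did not overlap for 7 members in P19 NTES7 against P19, for 6 in P19 against R1 and for 6 in P19 NTES7 against R1, where 36.2%, 47.4% and 39% of all genes did not. The median log2 difference of the members was −0.03, 0.02 and −0.07 in these comparisons, and that of all genes was 0.02, −0.02 and 0.01. The medians were close to those of all genes, and the counts are not read as particular to the family.

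**Figure D1:**
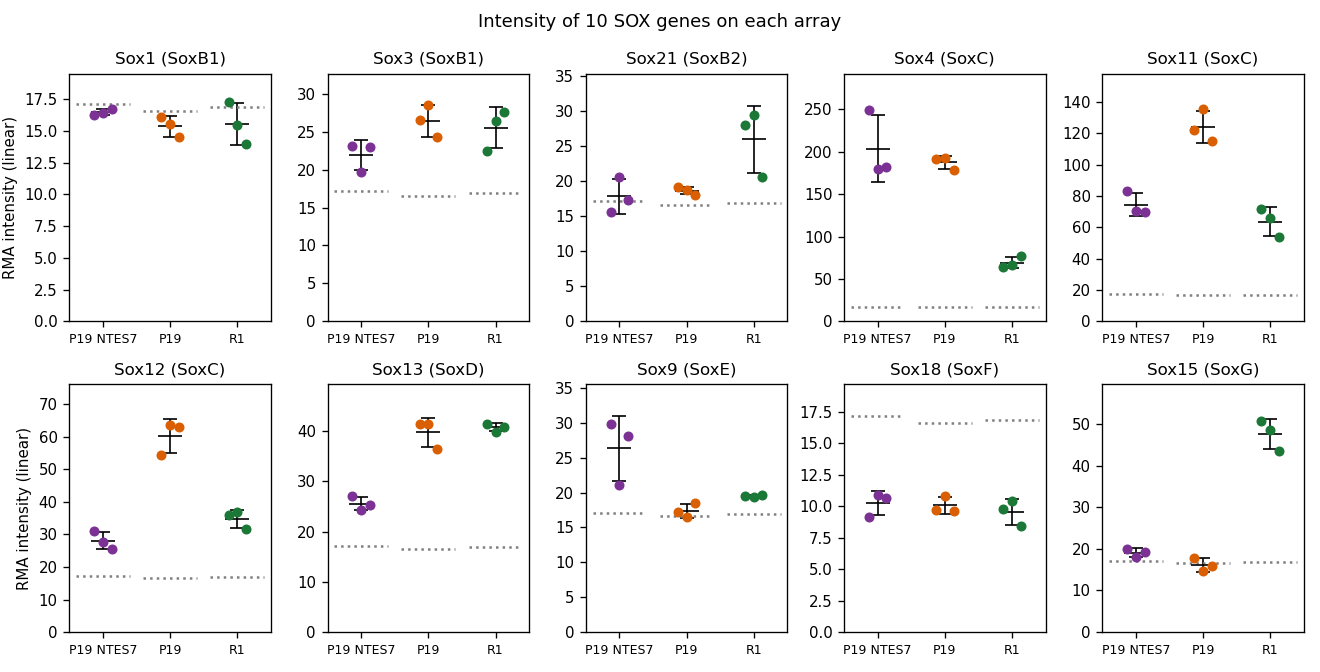
Intensity of each of the 10 SOX genes (vertical axes, linear scale from 0, each with its own range) in P19 NTES7, P19 and R1, with 1 point for each array, the mean as a long bar and the SD as error bars (n = 3). Dotted lines give the mean array median of each line. Sox4 sits between 178.9 and 249.3 in P19 NTES7 and P19, above all R1 arrays, while Sox15 sits between 43.6 and 50.7 in R1, above all arrays of the other lines.

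The SoxC genes, Sox4, Sox11 and Sox12, were all higher in P19 than in R1, but they took different courses in P19 NTES7. Sox4, which acts in progenitors of many tissues, had intensities of 249.3, 180.0 and 182.0 in P19 NTES7, 191.2, 192.3 and 178.9 in P19, and 64.1, 66.9 and 77.1 in R1. All arrays of P19 NTES7 and P19 lay above those of R1, and the arrays of P19 NTES7 and P19 overlapped, with P19 NTES7 replicate 1 the highest. The means were 204 ± 39.5 in P19 NTES7, 187 ± 7.43 in P19 and 69.4 ± 6.81 in R1 (SD, n = 3 arrays each).

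Sox4 was 2.71-fold higher in P19 than in R1 (log2 difference 1.44, SE 0.129, limma adjusted p = 1.25e-06) and 2.91-fold higher in P19 NTES7 than in R1 (log2 difference 1.54, limma adjusted p = 1.26e-06). Between P19 NTES7 and P19, the log2 difference was 0.10, with a 95% confidence interval from −0.17 to 0.38 (limma adjusted p = 0.652). Without P19 NTES7 replicate 1, it was −0.05. On a scale with P19 at 0 and R1 at 1, the Sox4 level of P19 NTES7 was at −0.0722, and its single arrays lay between −0.286 and 0.0405. No array of P19 NTES7 thus lay towards R1 by more than 0.0405 of this distance.

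Sox11, a gene of developing neurons, followed another pattern. Its intensities were 83.1, 70.4 and 69.8 in P19 NTES7, 122.3, 135.1 and 115.1 in P19, and 71.6, 65.6 and 53.5 in R1. Every P19 array was above all others, and the arrays of P19 NTES7 and R1 overlapped.

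Sox11 was at 0.599 of the P19 level in P19 NTES7 (log2 difference −0.74, SE 0.123, limma adjusted p = 8.09e-04), and it passed the adjusted p but not the fold of 2. In P19 it was 1.96-fold higher than in R1 (log2 difference 0.97, limma adjusted p = 3.22e-05), just under the fold of 2. It passed both limits without P19 replicate 3 (log2 difference 1.03), without R1 replicate 1 (1.06) or without R1 replicate 2 (1.001), and the number of members called in P19 compared to R1 was then 3. Between P19 NTES7 and R1 the log2 difference was 0.23 (95% confidence interval −0.03 to 0.50, limma adjusted p = 0.209).

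Sox12, the remaining SoxC gene, had intensities of 30.9, 27.8 and 25.5 in P19 NTES7, 54.3, 63.6 and 62.8 in P19, and 35.8, 36.7 and 31.7 in R1. The arrays of the lines did not overlap, with P19 highest and P19 NTES7 lowest, although P19 NTES7 replicate 1 and R1 replicate 3 were close. This is the gene whose promoter window above held the octamer.

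The fold for Sox12 in P19 NTES7 compared to P19 was 0.466 (log2 difference −1.10, SE 0.109, limma adjusted p = 1.11e-05), the one call among the members in this comparison. In P19 it was 1.73-fold higher than in R1 (log2 difference 0.79, limma adjusted p = 6.86e-05), past the adjusted p but not the fold of 2. Between P19 NTES7 and R1 the log2 difference of −0.31 did not pass (95% confidence interval −0.55 to −0.07, limma adjusted p = 0.0543). Sox11 and Sox12 of P19 NTES7 were thus below the P19 level and not shown to differ from R1, whereas Sox4 of P19 NTES7 was higher than in R1 and not shown to differ from P19.

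Sox15, the only SoxG gene, is expressed in mouse ES cells and placenta and acts in muscle progenitors. Its intensities were 20.1, 18.0 and 19.3 in P19 NTES7, 17.9, 14.6 and 16.0 in P19, and 50.7, 48.6 and 43.6 in R1. All R1 arrays were far above the others. In P19 NTES7 all 3 arrays were just above the array median, and in P19 only 1 of 3 was.

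The Sox15 level was 0.339 of that of R1 in P19 (log2 difference −1.56, SE 0.106, limma adjusted p = 8.23e-08) and 0.402 of that of R1 in P19 NTES7 (log2 difference −1.32, limma adjusted p = 8.33e-07). As P19 is at the floor of the array, the fold between P19 and R1 is not exact. Between P19 NTES7 and P19 the log2 difference was 0.25 (95% confidence interval 0.02 to 0.47, limma adjusted p = 0.136). The arrays of P19 NTES7 and P19 did not overlap, as for 36.2% of all genes. With P19 at 0 and R1 at 1, the Sox15 level of P19 NTES7 was at 0.157, and its single arrays lay between 0.101 and 0.203.

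**Figure D2:**
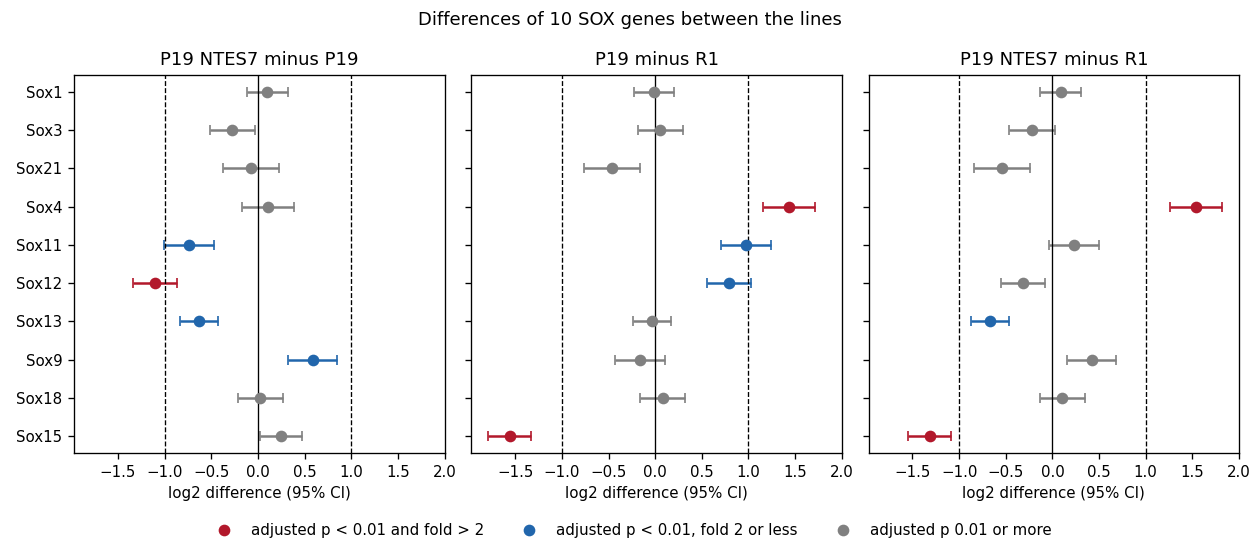
Log2 difference (horizontal axes) of each of the 10 SOX genes for P19 NTES7 minus P19, P19 minus R1 and P19 NTES7 minus R1, with 95% confidence intervals from limma as bars. Dashed lines mark a fold of 2 in each direction, and red points passed both limits (Sox12 at −1.10, Sox4 at 1.44 and 1.54, Sox15 at −1.56 and −1.32), blue points the adjusted p alone and grey points neither.

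Sox13, a SoxD gene that acts in T cells of the gamma-delta lineage, was lower in P19 NTES7 than in both other lines. It had intensities of 27.0, 24.3 and 25.4 in P19 NTES7, 41.4, 41.4 and 36.4 in P19, and 41.5, 39.9 and 40.9 in R1. No array of P19 NTES7 reached the level of any other array, while P19 and R1 overlapped. The log2 difference was −0.64 for P19 NTES7 compared to P19 (SE 0.0944, limma adjusted p = 3.25e-04) and −0.67 for P19 NTES7 compared to R1 (limma adjusted p = 1.21e-04), with neither past the fold of 2. Between P19 and R1 it was −0.04 (95% confidence interval −0.24 to 0.17, limma adjusted p = 0.804).

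Sox9, a SoxE gene known for cartilage and testis formation, was higher in P19 NTES7 than in P19. Its intensities were 29.8, 21.1 and 28.2 in P19 NTES7, 17.1, 16.5 and 18.5 in P19, and 19.4, 19.3 and 19.6 in R1. The P19 NTES7 arrays spread widely, with replicate 2 well below the other 2 yet above all arrays of P19 and R1. In P19 all 3 arrays were above their array medians, replicate 2 only just (16.54 against 16.48), so the fold to P19 may not be exact. The log2 difference was 0.59 in P19 NTES7 compared to P19 (1.5-fold, SE 0.123, limma adjusted p = 0.00415) and 0.42 in P19 NTES7 compared to R1 (limma adjusted p = 0.0220, not past the limit).

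The Sox9 difference to P19 lost the adjusted p without P19 NTES7 replicate 1 (limma adjusted p = 0.0186), P19 NTES7 replicate 3 (0.0227), P19 replicate 1 (0.0180) or P19 replicate 2 (0.0235), and with intensities floored at the array median (0.0149). Without P19 NTES7 replicate 2, the difference to R1 passed it as well (log2 difference 0.57, limma adjusted p = 0.00165). Fibroblast markers, which were also higher in P19 NTES7 than in P19 (sums of 844.3 to 1040, against 237.9 to 265), were higher still in R1 (1307 to 1613), where Sox9 was at 19.5 ± 0.172, and their part in the Sox9 difference was not tested.

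Sox1 and Sox3, the SoxB1 members, were not shown to differ between the lines. Sox1, an early gene of the neural plate, was at 16.3, 16.5 and 16.8 in P19 NTES7, 16.1, 15.5 and 14.5 in P19, and 17.3, 15.5 and 13.97 in R1, so that 1 R1 array alone exceeded its array's median. Sox3, which acts in neural progenitors and the pituitary, was above the median on every array, at 23.1, 19.6 and 23.0 in P19 NTES7, 26.6, 28.5 and 24.3 in P19, and 22.5, 26.4 and 27.7 in R1. Neither passed the adjusted p in any comparison, and the largest log2 difference, that of Sox3 in P19 NTES7 compared to P19, was −0.27 (limma adjusted p = 0.117).

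Sox21, the SoxB2 gene, which opposes SoxB1 factors in chick neural progenitors, was at 15.6, 20.5 and 17.3 in P19 NTES7, 19.1, 18.7 and 18.0 in P19, and 27.9, 29.4 and 20.5 in R1. R1 replicate 3 was far below the other R1 arrays and close to P19 NTES7 replicate 2. The log2 difference was −0.46 in P19 compared to R1 (limma adjusted p = 0.0209) and −0.54 in P19 NTES7 compared to R1 (limma adjusted p = 0.0113), neither past the limit.

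In P19 NTES7, Sox21 exceeded the array median on only 1 of 3 arrays, so its fold to R1 is not exact. Without R1 replicate 3, its log2 difference was −0.62 in P19 compared to R1 (limma adjusted p = 0.00112) and −0.70 in P19 NTES7 compared to R1 (limma adjusted p = 6.62e-04), so that both passed the adjusted p. The difference between P19 NTES7 and R1 also passed without P19 NTES7 replicate 2 (limma adjusted p = 0.00822), and with all 9 arrays under other scalings, such as arrays scaled to a median of 500 (limma adjusted p = 0.00674). Sox18, a SoxF gene of blood and lymph vessels, was below the array median on all 9 arrays, with intensities from 8.4 to 10.9, and did not pass in any comparison.

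The order of the levels therefore differed from gene to gene. For Sox11 and Sox12 P19 was highest, with P19 NTES7 and R1 not shown to differ. For Sox4 P19 NTES7 and P19 were at the top and not shown to differ, with R1 lowest, and for Sox15 R1 was highest, with P19 NTES7 and P19 not shown to differ. Sox13 was lowest in P19 NTES7, with P19 and R1 not shown to differ, and Sox9 was highest in P19 NTES7, where only the difference to P19 passed.

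**Figure D3:**
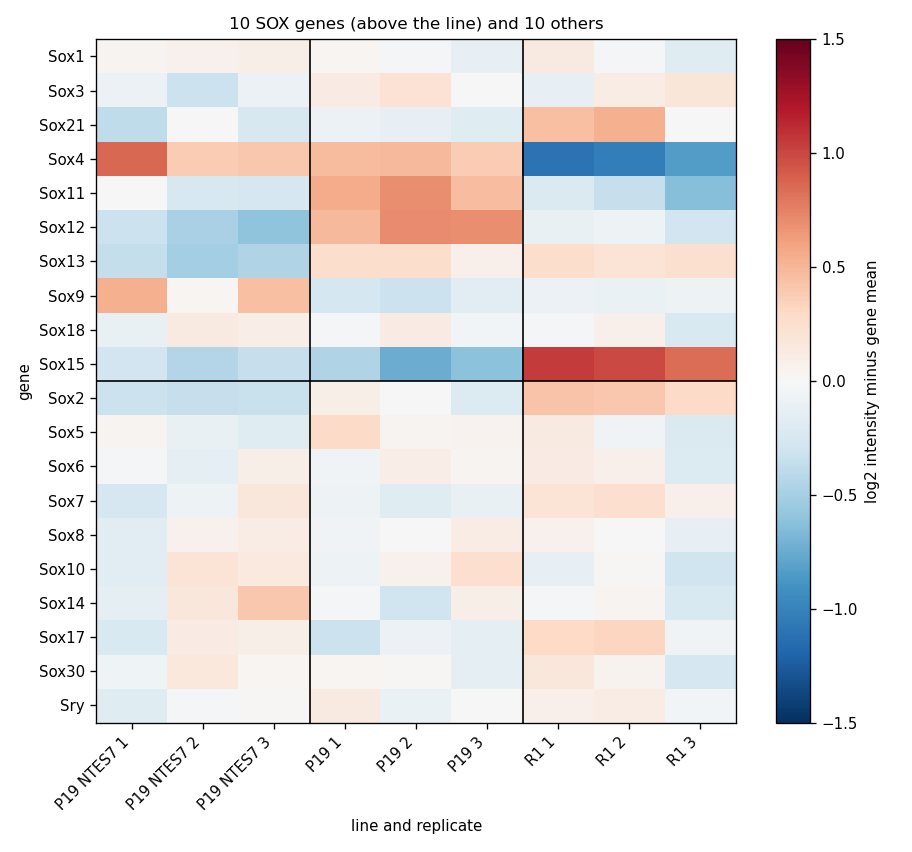
Log2 intensity minus the mean of the gene over the 9 arrays (color) for the 10 SOX genes above the horizontal line and the other 10 measured SOX genes below it, with 1 column for each array, P19 NTES7 on the left, P19 in the middle and R1 on the right. Sox4, Sox11, Sox12 and Sox15 show the strongest blocks by line, and among the genes below the line Sox2 is the one that differs between lines.

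The other 10 measured SOX genes gave 0 calls in any comparison. Sox2, the SoxB1 gene of the pluripotency network, had intensities of 546.4, 537.7 and 541.8 in P19 NTES7, 722.4, 683.5 and 589.3 in P19, and 916.9, 900.8 and 834.8 in R1. The arrays did not overlap, and its log2 difference passed the adjusted p in P19 compared to R1 (−0.41, limma adjusted p = 0.00540) and in P19 NTES7 compared to R1 (−0.70, limma adjusted p = 1.31e-04), but not in P19 NTES7 compared to P19 (−0.29, limma adjusted p = 0.0606). Sox15 and Sox2 were both lower in P19 and P19 NTES7 than in R1.

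Sox5, Sox6, Sox7, Sox8, Sox10, Sox14, Sox17 and Sox30 were below the array median on all arrays. Sry was listed above the median on all arrays, with means of 22.8 ± 1.55 in P19 NTES7, 24.1 ± 2.01 in P19 and 24.7 ± 1.35 in R1, and its lines overlapped. None of these 9 genes passed the adjusted p in any comparison.

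POU factors include partners of SOX proteins. Of 8 measured, limma called none in any comparison. With the adjusted p alone, 4 passed in P19 NTES7 compared to P19, against 12.1% of all genes. In P19 compared to R1, 1 passed, against 25%, and in P19 NTES7 compared to R1, 2 passed, against 18.7%. The 4 in P19 NTES7 compared to P19 were 1 higher and 3 lower. The median log2 differences of the 8 POU factors were 0.05, −0.01 and −0.02 in these comparisons. By line means, 5 of the 8 were at or below the array median in P19 NTES7, 6 in P19 and 5 in R1. Pou5f1 was above it on all arrays. Its log2 difference was −0.59 in P19 NTES7 compared to P19 (limma adjusted p = 0.00307) and 0.58 in P19 compared to R1 (limma adjusted p = 0.00157). Between P19 NTES7 and R1 it was −0.0032 (limma adjusted p = 0.989).

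Among neural genes, which SOX factors accompany in the embryo, 4 of 10 measured were called in P19 compared to R1. These were 3 higher and 1 lower, against 7.31% of all genes called in either direction. In P19 NTES7 compared to P19, 2 were called lower, against 2.83% of all genes. In P19 NTES7 compared to R1, 1 was called higher and 1 lower, against 4.51%. The median log2 difference of the list was 0.21 in P19 compared to R1, 0.01 in P19 NTES7 compared to P19 and 0.25 in P19 NTES7 compared to R1.

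Zic1, a transcription factor of the neural plate, had intensities of 24.7, 20.1 and 22.8 in P19 NTES7, 107.1, 86.8 and 90.8 in P19, and 11.6, 11.8 and 11.9 in R1. Msi1, an RNA-binding protein of neural stem cells, was at 61.0, 47.2 and 52.6 in P19 NTES7, 124.4, 131.2 and 140.4 in P19, and 27.4, 31.2 and 25.9 in R1. Both were highest in P19, as were Sox11 and Sox12, with log2 differences of −2.07 and −1.31 in P19 NTES7 compared to P19 (limma adjusted p = 3.25e-08 and 3.85e-06). Zic1 and Msi1, unlike Sox11 and Sox12, also passed the adjusted p in P19 NTES7 compared to R1. Their log2 differences there were 0.93 and 0.92 (limma adjusted p = 2.61e-05 and 4.53e-05). Zic1 was below the array median on all R1 arrays, so its fold to R1 is not exact.

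Nes, the intermediate filament nestin of neural progenitors, was lowest in R1, as was Sox4, with 75.2 ± 8.34 in P19 NTES7, 75.6 ± 11.3 in P19 and 28.8 ± 3.98 in R1. It was called higher in P19 than in R1 (log2 difference 1.39, limma adjusted p = 2.54e-06) and in P19 NTES7 than in R1 (1.39, limma adjusted p = 4.91e-06). Pax6, a transcription factor of eye and brain, followed the order of Sox15, with 10.3 ± 0.494 in P19 NTES7, 10.2 ± 1.47 in P19 and 26.4 ± 3.63 in R1. It was called lower in both comparisons with R1 (−1.37 for P19 and −1.35 for P19 NTES7), with P19 NTES7 and P19 below the array median.

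**Figure D4:**
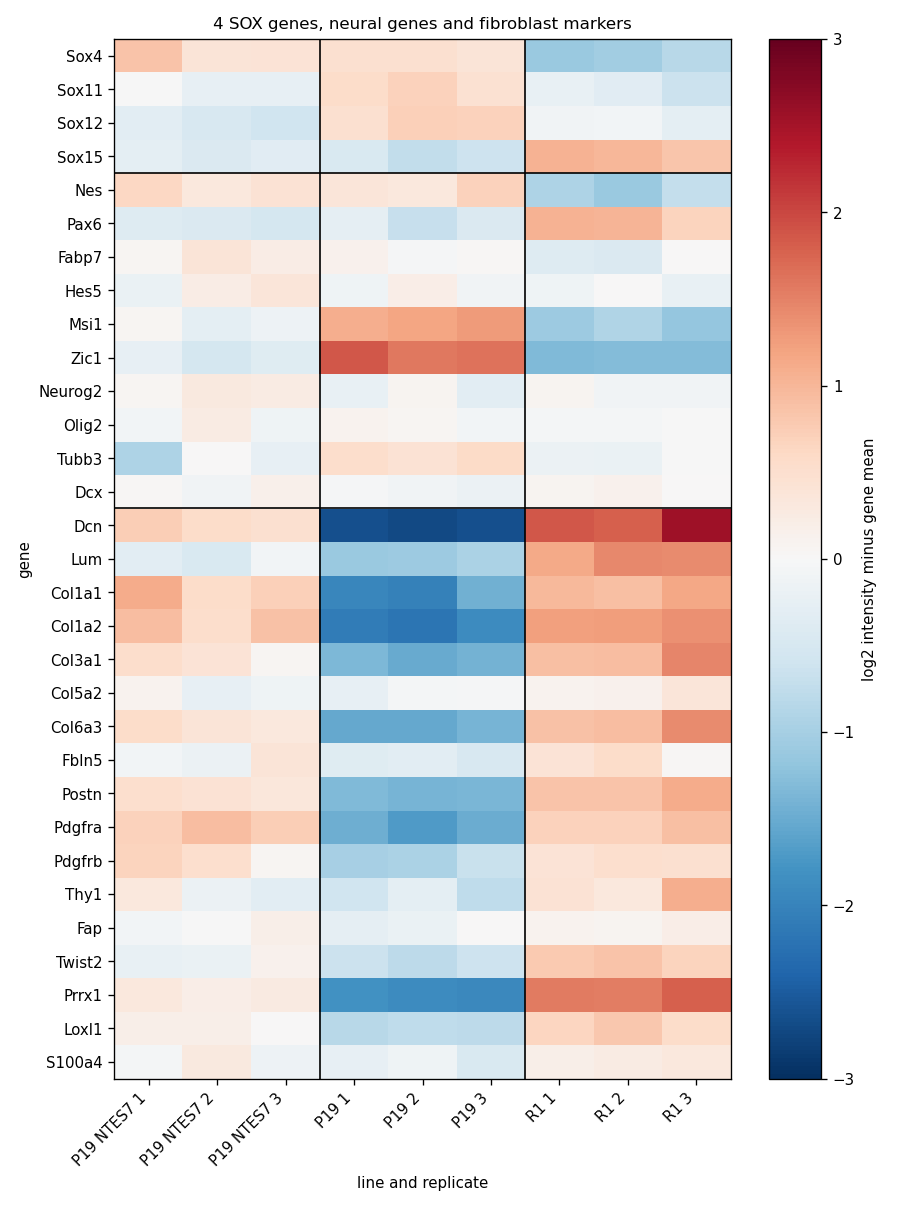
Log2 intensity minus the mean of the gene over the 9 arrays (color) for Sox4, Sox11, Sox12 and Sox15 at the top, the 10 measured neural genes in the middle and the 17 measured fibroblast markers at the bottom, with 1 column for each array, P19 NTES7 on the left, P19 in the middle and R1 on the right. Msi1 and Zic1 are highest in P19, and most fibroblast markers are lowest there.

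The summed fibroblast markers were lowest in P19, the line in which Sox11 and Sox12 were highest. Of 17 measured, 9 rose and 0 fell past both limits for P19 NTES7 compared to P19, 0 rose and 13 fell for P19 compared to R1, and 0 rose and 3 fell for P19 NTES7 compared to R1. Of all genes, 2.83%, 7.31% and 4.51% were called in these comparisons. Dcn, the matrix proteoglycan decorin, had means of 80.6 ± 7.23 in P19 NTES7, 8.45 ± 0.245 in P19 and 232 ± 70.5 in R1, and R1 replicate 3 was its highest array at 312.8. Their part in the differences of the SOX genes was not tested.

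Genes of cartilage and endothelium, tissues in which Sox9 and Sox18 are best known, were set beside them. None of 12 cartilage matrix genes was called in any comparison. With the adjusted p alone, 1, 1 and 0 passed in P19 NTES7 compared to P19, P19 compared to R1 and P19 NTES7 compared to R1. The shares of all genes there were 12.1%, 25% and 18.7%. By line means, 10 of the 12 were at or below the array median in P19 NTES7, 10 in P19 and 9 in R1. The floor thus limited what could be called. Of 12 endothelial genes, 0 were called in P19 NTES7 compared to P19, 3 lower in P19 compared to R1 and 1 lower in P19 NTES7 compared to R1, against 2.83%, 7.31% and 4.51% of all genes. With the adjusted p alone, 3, 4 and 4 endothelial genes passed, against 12.1%, 25% and 18.7% of all genes. The endothelial gene with the largest difference was Eng, the co-receptor endoglin, at 12.8 ± 1.40 in P19 NTES7, 9.52 ± 0.373 in P19 and 108 ± 2.16 in R1. Its log2 difference was −3.50 in P19 compared to R1 (limma adjusted p = 3.35e-11) and −3.08 in P19 NTES7 compared to R1 (limma adjusted p = 1.82e-10). Eng was below the array median on all arrays of P19 NTES7 and P19, so these folds are not exact. Sox18 was at the floor in all lines.

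Of 9 endoderm genes, a lineage of SoxF factors, Gata6 was the only call. It was made in P19 NTES7 compared to P19, where 2.83% of all genes were called. With the adjusted p alone, 2 were higher and 1 lower in this comparison, against 12.1% of all genes. In P19 compared to R1, 1 was higher and 2 lower, against 25%, and in P19 NTES7 compared to R1, 0 passed, against 18.7%. By line means, 5 of the 9 were at or below the array median in P19 NTES7, 6 in P19 and 5 in R1. Gata6, a transcription factor of primitive endoderm, was at 35.8 ± 1.72 in P19 NTES7, 17.6 ± 0.999 in P19 and 28.7 ± 2.33 in R1, and was higher in P19 NTES7 than in P19 by 1.03 on the log2 scale (limma adjusted p = 7.84e-06). Of 10 pluripotent markers, 2 rose and 1 fell past both limits for P19 NTES7 compared to P19, against 2.83% of all genes. In each comparison with R1, 4 fell and 0 rose past both limits, the direction Sox15 took there. The shares of all genes called there were 7.31% for P19 and 4.51% for P19 NTES7. The markers did not all go this way. With the adjusted p alone, 2 were higher and 5 lower in P19 than in R1, against 25% of all genes. In P19 NTES7 compared to R1, 1 was higher and 6 lower, against 18.7%.

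The genes whose log2 profiles, centred on their own means, were closest to those of the called members over the 9 arrays were then listed by Euclidean distance. For Sox4 they were Atp10d (distance 0.352), Pik3cd (0.352) and Nhsl1 (0.354). For Sox12 they were Marcks (0.277), Pgm2 (0.285) and Basp1 (0.334), and for Sox15 Mrpl35 (0.264), Pik3cb (0.316) and Mzt1 (0.360). Marcks, a substrate of protein kinase C at the membrane, shows the order of Sox12, with means of 114 ± 12.0 in P19 NTES7, 256 ± 11.2 in P19 and 136 ± 3.24 in R1. Pik3cb, a catalytic subunit of phosphoinositide 3-kinase, shows that of Sox15, with 115 ± 9.27 in P19 NTES7, 102 ± 11 in P19 and 279 ± 7.94 in R1. Atp10d, a flippase of membrane lipids, was lowest in R1, as was Sox4, with 196 ± 21.5 in P19 NTES7, 202 ± 10.9 in P19 and 71.8 ± 13.1 in R1. These genes were chosen for their likeness, which is given as a description over 9 arrays with no test.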

How the data were processed

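RNA of P19 NTES7, P19 and R1 cells (3 arrays each) was measured by the authors on the GeneChip Gene 1.0 ST Array. The deposited intensity values are on the linear scale and were made by the authors with Robust Multichip Average (RMA). The methods scale each array to a median of 500, which the deposited values, with array medians of 16.5 to 17.5, do not carry. For the tests, log2 of each deposited value was taken. The fit was made in limma 3.58.1 under R 4.3.3 with 1 mean for each line, and p-values were adjusted by Benjamini-Hochberg over all 28853 probe sets of a comparison. The script was tested on simulated data.

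The platform annotation gave 21789 probe sets 1 symbol, 1621 several and 5443 none. Each gene took the probe set with the highest mean log2 value, and all 10 members were found among the RefSeq genes. The members and lists were chosen with earlier results of these data known. The rule for naming genes takes all members, all other measured SOX genes, up to 4 called members of each list with the largest differences, and the 3 nearest profiles of each called member. Pou5f1 was named outside this rule, as the partner of Sox2.

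The alternatives were other scalings, filters, floors, variance models, the methods' test, a replicate block and leaving out each array.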

Additional observations from a re-analysis of the deposited data

How the results depend on the processing

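The counts of members called were 1 in P19 NTES7 compared to P19, 2 in P19 compared to R1 and 2 in P19 NTES7 compared to R1 under every alternative, except 3 in P19 compared to R1 without P19 replicate 3, R1 replicate 1 or R1 replicate 2. With the adjusted p alone, leaving out 1 array gave 3 to 4 members in P19 NTES7 compared to P19, 4 to 5 in P19 compared to R1 and 3 to 5 in P19 NTES7 compared to R1, the 5 without P19 NTES7 replicate 2, where Sox9 and Sox21 joined. The replicate block, on numbers that did not pair the arrays (deviations of the 9 same-numbered pairs correlated between −0.223 and 0.0403, and 0 arrays correlated best with their own number), gave 837, 2136 and 1302 called probe sets in these comparisons, against 839, 2135 and 1305, and changed no call of a member. The floor at the array median gave 648, 1687 and 1042, the methods' test 810, 2082 and 1279, and its Benjamini-Hochberg version, chosen after seeing the data, 723, 1892 and 1188. Values that changed sign were small differences that did not pass. With arrays scaled to a median of 500, Sox18 was at −0.0219 in P19 NTES7 minus P19 and Sox1 at 0.0103 in P19 minus R1, and with quantile normalization they were at −0.0623 and 0.0138. With the floor, Sox18 was at −0.0242 in P19 minus R1. Leaving out 1 array gave log2 differences from −0.0234 to 0.104 for Sox18, −0.0503 to 0.185 for Sox4 and −0.182 to 0.0132 for Sox21 in P19 NTES7 minus P19, and from −0.0896 to 0.0632 for Sox1, −0.00627 to 0.146 for Sox18, −0.0333 to 0.115 for Sox3 and −0.0693 to 0.0247 for Sox13 in P19 minus R1. The adjusted p of Sox9 in P19 NTES7 compared to P19 ranged from 4.81e-04 to 0.0235 over the limma alternatives, and the Benjamini-Hochberg version of the methods' test, which compares the 3 lines at once, gave 0.0399. Sox21 in P19 NTES7 compared to R1 passed the adjusted p in 6 alternatives and missed it in the fit reported. The causes of these changes were not tested. Signal over background limited Sox1, Sox15, Sox18 and Sox21, which had 1 or more lines with at most 1 of 3 arrays above the array median.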
